A study of Mus musculus with 6 samples.

Results

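Inherited dystonias are disorders of sustained or intermittent muscle contraction, and 9 genes of such disorders other than Thap1 were followed in mouse embryonic stem cells with altered or missing THAP1. The genes were taken by symbol from the deposited table (Tor1a, Vps16, Sgce, Spr, Gch1, Prkra, Gnal, Ciz1 and Kctd17). All 9 were found among its 19713 genes, and all 9 were among the 15287 genes tested. The series holds 3 genotypes with 2 libraries each. KO cells lack THAP1 (labelled THAP1 -/-, with exon 2 of Thap1 deleted), C54Y cells are homozygous for the missense change C54Y of THAP1, and WT cells are unaltered. All were derived from C57Bl/6 blastocysts and kept on irradiated mouse embryonic fibroblasts with 15% serum and 1000 units of LIF per ml, so RNA of feeder cells can be present in every library. The labels do not say whether the libraries of a genotype came from separate cultures or clones, so p-values measure only the spread between these samples, which may be technical. The cells are undifferentiated, whereas dystonia is a disorder of the brain.

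THAP1 binds DNA through a zinc finger and is itself the product of a dystonia gene, and the 9 genes act in several processes. TOR1A is a torsin ATPase of the endoplasmic reticulum and nuclear envelope, VPS16 a core subunit of the complexes that tether vesicles to endosomes and lysosomes, and SGCE (epsilon-sarcoglycan) a membrane protein of an imprinted gene. GCH1 and SPR carry out the first and the last step in the synthesis of tetrahydrobiopterin, the cofactor of tyrosine hydroxylase and so of dopamine production. PRKRA activates the stress kinase PKR, GNAL is a stimulatory G protein alpha subunit coupled to dopamine and adenosine receptors in the striatum, CIZ1 is a nuclear matrix protein of DNA replication that also anchors Xist RNA, and KCTD17 is a substrate adaptor for cullin ubiquitin ligases.

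Of these genes, 4 of 9 passed the test between KO and WT, as did 16.3% of all tested genes. Vps16, Sgce and Prkra fell and Spr rose. Tor1a, the gene that THAP1 is best known to be linked with, was not called in either mutant. In C54Y 0 of the 9 genes passed, and the C54Y values of these 4 genes lay between those of KO and WT in both replicates, as they did for 79.4% of all genes called in KO.

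Promoter sequence is shown first because THAP1 binds DNA. The stretches are the 250 bases before the annotated start of the gene in RefSeq (GRCm38.p6), where 6 of the 9 genes were matched. Printed are Tor1a, which was not called, and the called genes Vps16, Prkra and Spr, each read 5′ to 3′ on the strand of its gene. Capitals mark matches to TNNGGCA, a core of the THAP1 binding motif, searched on both strands, and to AAGATGG, a core of the motif of its partner YY1, searched likewise. The Tor1a stretch is chr2:30967919-30968168 on the minus strand, that of Vps16 is chr2:130424070-130424319 on the plus strand, that of Prkra is chr2:76648028-76648277 on the minus strand, and that of Spr is chr6:85137765-85138014 on the minus strand.
Tor1a: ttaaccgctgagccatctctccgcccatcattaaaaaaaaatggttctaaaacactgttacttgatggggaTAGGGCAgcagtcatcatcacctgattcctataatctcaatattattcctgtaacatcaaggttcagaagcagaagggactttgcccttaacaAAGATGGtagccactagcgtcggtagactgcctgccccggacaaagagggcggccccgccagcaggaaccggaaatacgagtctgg
Vps16: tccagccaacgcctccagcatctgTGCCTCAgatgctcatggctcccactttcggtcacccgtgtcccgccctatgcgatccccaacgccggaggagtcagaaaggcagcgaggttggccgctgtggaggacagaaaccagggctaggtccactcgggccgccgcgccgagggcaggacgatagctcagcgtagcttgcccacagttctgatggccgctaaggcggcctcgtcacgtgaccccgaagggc
Prkra: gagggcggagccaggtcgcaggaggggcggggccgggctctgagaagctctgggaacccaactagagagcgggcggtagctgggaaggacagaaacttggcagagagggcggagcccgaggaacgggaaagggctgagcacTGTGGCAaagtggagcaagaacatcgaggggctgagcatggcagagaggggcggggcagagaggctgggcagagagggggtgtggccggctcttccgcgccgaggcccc
Spr: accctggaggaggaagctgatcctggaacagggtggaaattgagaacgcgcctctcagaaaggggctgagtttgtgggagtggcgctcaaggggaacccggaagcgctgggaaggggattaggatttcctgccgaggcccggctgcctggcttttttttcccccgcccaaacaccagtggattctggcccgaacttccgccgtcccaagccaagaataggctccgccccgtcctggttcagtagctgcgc
The Tor1a stretch held a THAP1 core match starting 179 bases before the start of the gene and a YY1 core match starting 86 bases before it. Vps16 had 1 THAP1 core match, on the opposite strand and 226 bases before the start, and Prkra had 1 at 109 bases. No match to either motif lay in the Spr stretch. Gch1 and Ciz1 each had 1 THAP1 core match as well, Ciz1 before the first of its annotated starts. A THAP1 core match was present in 34.7% of all 32851 RefSeq windows of this length and a YY1 core match in 4.49%, so a THAP1 core match is common. A match of letters is no measurement of binding.

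The deposited values are normalized counts, that is reads per gene divided by a size factor for each library. Recovered library depth was 31774656 to 46772996 reads. The replicate number marks a large difference between libraries in all 3 genotypes. The log2 differences of replicate 2 from replicate 1 correlated between genotypes at 0.869 to 0.907 across genes. Between replicate 2 and replicate 1, 64.9% of tested genes were called. Mutants were therefore set against WT within each replicate number, and calls are from limma with the replicate number as a block and Benjamini-Hochberg adjustment over all 15287 genes at a threshold of 0.05. Without the block limma and edgeR called 0 genes in each comparison of genotypes, against 1049 and 1059 at an unadjusted p under 0.05 between KO and WT. Thap1 itself had 1975 and 1687 normalized counts in KO, 2253 and 2533 in C54Y, and 433 and 701 in WT (replicates 1 and 2, in this order throughout), with log2 fold changes of 1.72 for KO, adjusted p = 0.0018, and 2.11 for C54Y, adjusted p = 0.00301. Reads of all exons are summed in it, so it checks neither allele. Stem cell markers were abundant in every library (10 markers together, 5638 to 11383 CPM).

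**Figure D1:**
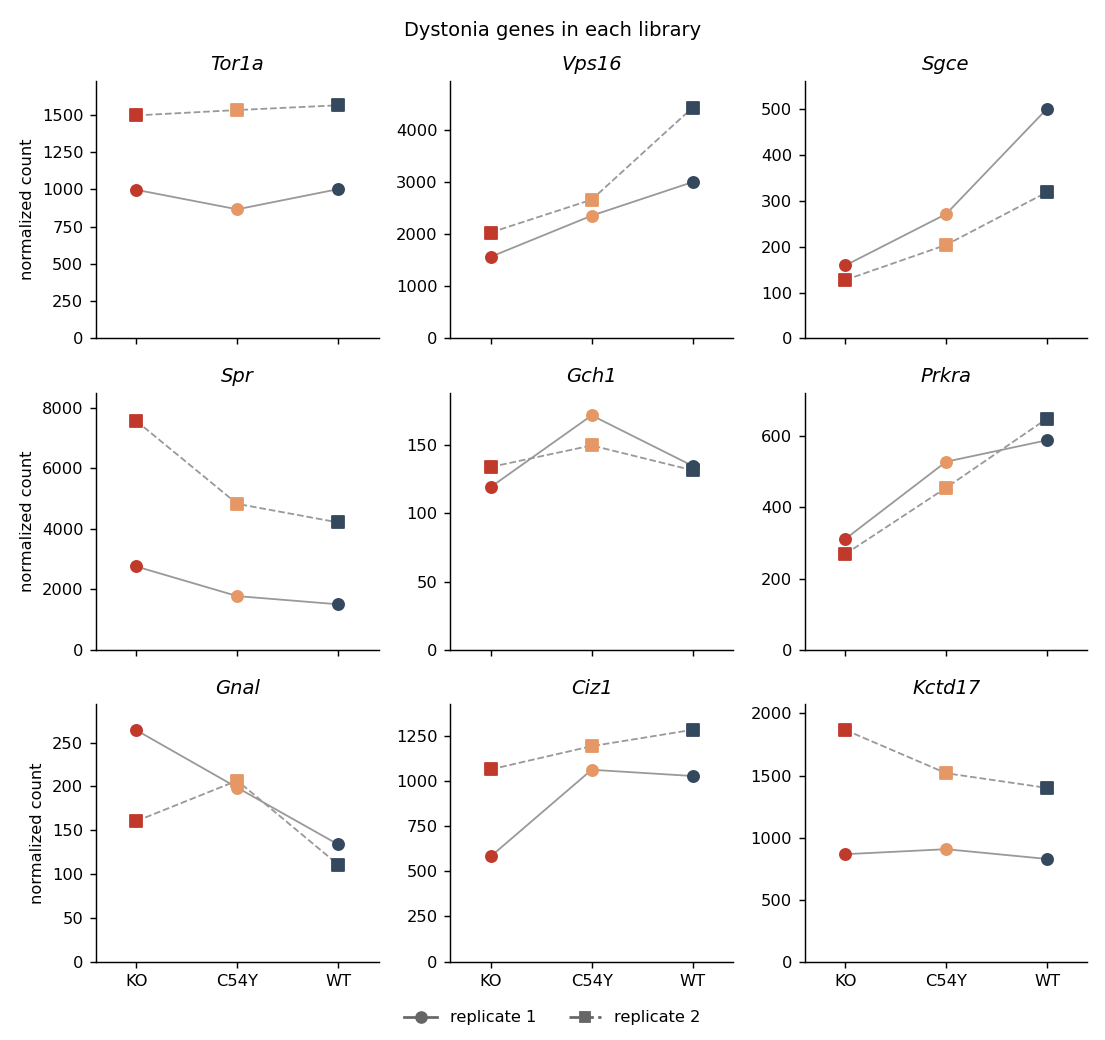
Normalized counts (y axis, from 0) of the 9 dystonia genes in KO, C54Y and WT libraries (x axis), with circles and solid lines for replicate 1 and squares and dashed lines for replicate 2. Vps16, Sgce and Prkra step up from KO over C54Y to WT in both replicates, Spr steps down, and Tor1a is split by replicate rather than by genotype.

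Levels per exon length spanned a wide range. RPKM is reads per kilobase of the merged annotated exons of all transcripts of a gene, scaled to equal library depth. Over the 6 libraries RPKM averaged 26.7 ± 12.5 for Spr, 19.2 ± 6.90 for Vps16, 16.3 ± 2.17 for Tor1a and 12.6 ± 2.58 for Kctd17 (SD, n = 6 libraries of 3 genotypes). Prkra averaged 6.31 ± 2.46 and Ciz1 3.22 ± 0.756, while Sgce (0.699 ± 0.445), Gch1 (0.608 ± 0.145) and Gnal (0.436 ± 0.158) stood lowest. The first 4 genes overlapped in their ranges, and so did the last 3. Ranges did not overlap between Kctd17 (lowest 9.65) and Prkra (highest 9.29), nor between Ciz1 (lowest 1.92) and Sgce (highest 1.51). Spr was above 87.3% of tested genes in mean level and Gnal above 19%. The 3 lowest genes rest on few reads: 100 to 671 for Sgce, 102 to 252 for Gch1 and 86 to 304 for Gnal in a library. Levels and their order depend on the merged lengths used, from 1995 bases for Tor1a to 11172 for Gnal. In WT replicate 1, Sgce (10612 bases) had 671 reads and Prkra (2028 bases) had 787.

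**Figure D2:**
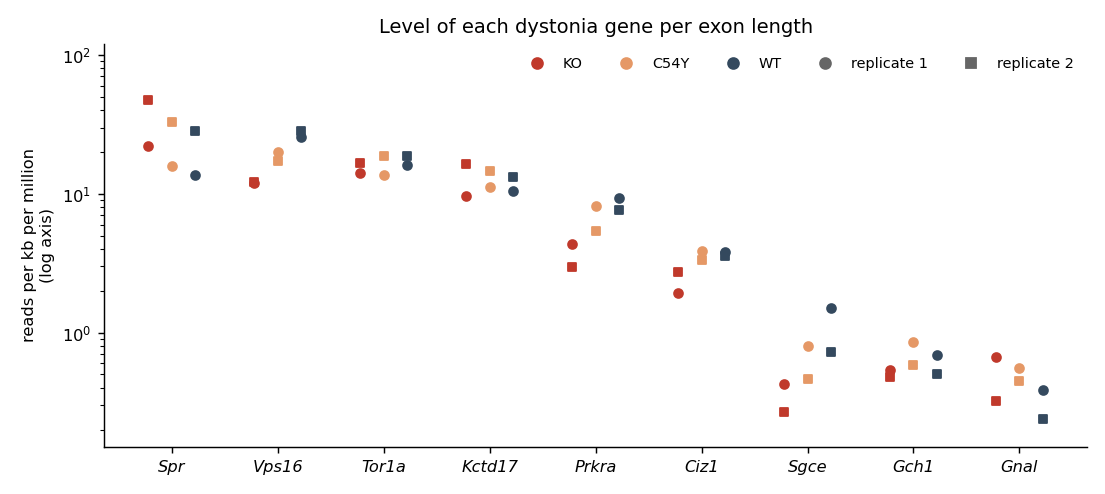
RPKM (y axis, log scale) for each dystonia gene (x axis, ordered by mean level), in KO, C54Y and WT libraries of replicates 1 (circles) and 2 (squares). Spr, Vps16, Tor1a and Kctd17 lie at 9.65 and above, while Sgce, Gch1 and Gnal lie at 1.51 and below.

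KO was set against WT to see which dystonia genes differ in cells without THAP1. Of all tested genes, 16.3% were called, 8.9% up and 7.41% down. Among the 9 dystonia genes 1 was called up and 3 down, and their median log2 fold change was -0.074, against 0.028 over all tested genes. At an unadjusted p under 0.05 were 6 of the 9 by limma (31.1% of all tested genes). The count was likewise 6 by edgeR (30.7%) and 6 by DESeq2 (26.6%), each with the block. With 9 genes, which were chosen with earlier results of these data known, these counts describe the genes and are no test of them as a group.

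Vps16, which encodes the subunit shared by the HOPS and CORVET tethering complexes, had 1564 and 2030 normalized counts in KO, 2354 and 2660 in C54Y, and 2998 and 4428 in WT. The KO libraries lay below every C54Y library, and these below every WT library. KO held 52.2% of the WT value in replicate 1 and 45.9% in replicate 2, a log2 fold change of -1.03 ± 0.15 (SE, adjusted p = 0.00357). The call held with each of the 6 libraries left out. Of 16 other tested genes of the tethering machinery, 0 rose and 1 fell in KO, and the 15 that were not called ranged from -0.055 to 0.46. The gene that fell was Stx7, a syntaxin of late endosome fusion, at -1.05 ± 0.16 (adjusted p = 0.00388). Stx7 had 1003 and 485 normalized counts in KO and 2021 and 1037 in WT. Vps16 shares 2.92% of its exon bases with Pced1a on the other strand, and the strand setting of the counting is not given in the sources used here; Pced1a stood at -0.38 in KO (adjusted p = 0.229).

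Prkra, the gene of the PKR activator, had 311 and 269 normalized counts in KO, 528 and 455 in C54Y, and 588 and 649 in WT. All KO libraries lay below all C54Y libraries, and the C54Y libraries below the WT libraries. The KO value was 52.9% of WT in replicate 1 and 41.4% in replicate 2, a log2 fold change of -1.09 ± 0.20 (adjusted p = 0.00893). This call was lost without WT replicate 2 (adjusted p = 0.0819). Of 13 other tested genes of PKR and of eIF2 alpha phosphorylation, the step that such kinases act on to lower translation, 0 were called in KO by limma (3 at an unadjusted p under 0.05), 0 by edgeR and 1 by DESeq2 (Eif2s3x, 0.64, adjusted p = 0.0373, named after its values were seen). Without KO replicate 1 or KO replicate 2, limma called 3. Their values ranged from -0.55 to 0.62.

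Sgce had 159 and 127 normalized counts in KO, 271 and 204 in C54Y, and 501 and 319 in WT. It showed the largest change of the 9 genes in size, with the KO libraries below the C54Y libraries and these below the WT libraries. KO held 31.7% of WT in replicate 1 and 39.9% in replicate 2, a log2 fold change of -1.48 ± 0.23 (adjusted p = 0.00419) that stayed called with each library left out. Sgce is expressed from the paternal allele and lies head to head with Peg10, an imprinted gene derived from a retrotransposon, in one imprinted region of chromosome 6. Peg10 had 13768 and 7174 normalized counts in KO, 15697 and 8524 in C54Y, and 25083 and 16885 in WT. Every mutant library lay below both WT libraries. Peg10 fell by 1.05 ± 0.13 on the log2 scale in KO, with an adjusted p of 0.00188, and by 0.83 ± 0.13 in C54Y, with an adjusted p of 0.0216, and the C54Y call was lost without C54Y replicate 2 (adjusted p = 0.354) or WT replicate 2 (adjusted p = 0.121). Pon2, a paraoxonase gene of the same region, had 101 and 121 normalized counts in KO and 255 and 302 in WT, a log2 fold change of -1.32 ± 0.25 (adjusted p = 0.0102). In C54Y Pon2 stood at -1.02 by limma and was not called (adjusted p = 0.107). EdgeR did not call Pon2 in C54Y either (adjusted p = 0.106), while DESeq2 did (adjusted p = 0.0421). Of 10 other tested genes of the region, 2 fell and 0 rose in KO, and the remaining 8 ranged from -0.56 to 0.18. Of 12 other tested genes of the sarcoglycan and dystroglycan complex, 1 fell and 0 rose by limma, the dystrobrevin gene Dtna (-0.93 ± 0.25, adjusted p = 0.0373); leaving out either WT library ended this call (adjusted p = 0.0559 and 0.223), and the other 11 ranged from -0.99 to 1.53. EdgeR also called Utrn down (-0.54, adjusted p = 0.0341) and DESeq2 called Dmd up (0.79, adjusted p = 0.0132), the utrophin and dystrophin genes, both named after their values were seen.

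Fibroblasts express Sgce, and feeder cells were present in culture, so fibroblast markers are set beside it. Summed over 24 markers, they took 141 and 1020 CPM (counts in a library scaled to equal depth) in KO, 466 and 1189 in C54Y, and 582 and 999 in WT. In replicate 1 the sum was lower in KO than in WT, where Sgce was at 31.7% of WT, and in replicate 2 the sums were close, where Sgce was at 39.9%. The 22 markers tested had a median log2 fold change of -0.57 in KO, against 0.028 over all genes, and 6 had an unadjusted p under 0.05. Of these 22 markers, 0 rose and 2 fell in KO by limma, and 13 fell without KO replicate 2 and 7 without WT replicate 2. The 2 were Pdgfra (-1.83, adjusted p = 0.00584) and Mmp2 (-1.03, adjusted p = 0.0283, lost without WT replicate 1 with adjusted p = 0.0768). Pdgfra also marks primitive endoderm, whose markers fell in 11 of 12 genes in KO (9 to 11 with one library left out) and 8 of 12 in C54Y (5 without C54Y replicate 2). These 12 markers together took 388 and 315 CPM in KO, 531 and 356 in C54Y, and 1339 and 604 in WT, and 0 of them were without reads in all libraries. Stem cell markers rose in KO in 7 of 10 genes, against 8.9% of all tested genes, with a median of 0.93. The endoderm markers had a median of -1.93 in KO, where 7.41% of all tested genes were called down. In C54Y their median was -1.53, with 0.399% of all tested genes called down. The part of such cell states in the values of Vps16, Sgce, Prkra and Spr was not tested, and in bulk RNA fewer cells of a type and less RNA per cell cannot be told apart.

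**Figure D3:**
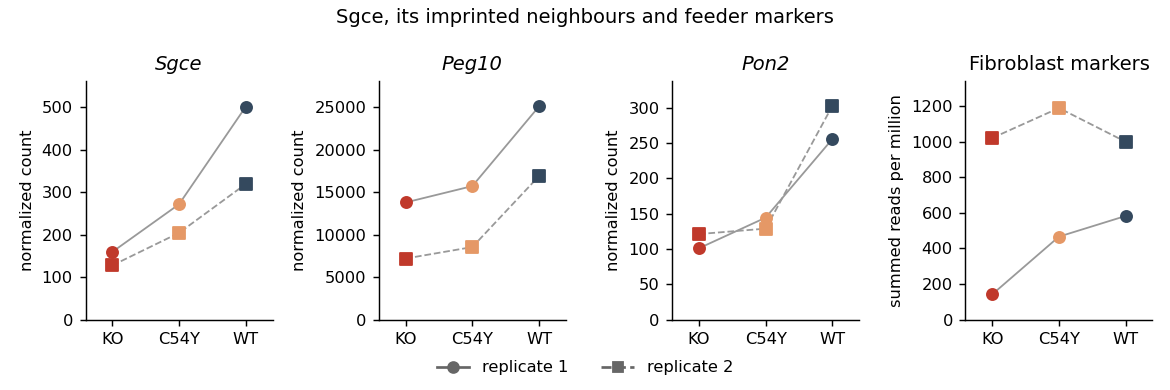
Normalized counts of Sgce, Peg10 and Pon2 and the summed CPM of 24 fibroblast markers (y axes, from 0) in KO, C54Y and WT (x axis), circles for replicate 1 and squares for replicate 2. The 3 genes of the imprinted region are lower in both mutants than in WT in both replicates, and the fibroblast sum is 141 in KO and 582 in WT in replicate 1 and 1020 in KO and 999 in WT in replicate 2.

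Spr, which encodes sepiapterin reductase, had 2758 and 7563 normalized counts in KO, 1780 and 4826 in C54Y, and 1510 and 4213 in WT. Its libraries overlap between KO and WT, and replicate 2 was above replicate 1 in each genotype, but within each replicate KO was highest and WT lowest. KO reached 183% of WT in replicate 1 and 180% in replicate 2, a log2 fold change of 0.86 ± 0.14 (adjusted p = 0.0047), called with each library left out. Gch1, the gene of the enzyme that commits GTP to this pathway, was not called. It had 119 and 134 normalized counts in KO, 171 and 149 in C54Y, and 134 and 131 in WT. Its KO to WT difference was -0.074 ± 0.26 (adjusted p = 0.88), with a 95% interval of -0.65 to 0.51, and its sign differed between the replicates. Gchfr, whose protein relays feedback inhibition by tetrahydrobiopterin and stimulation by phenylalanine to GCH1, fell by 2.01 ± 0.37 on the log2 scale in KO (adjusted p = 0.00826). Gchfr had 6.95 and 56.0 normalized counts in KO, 30.6 and 121 in C54Y, and 51.5 and 156 in WT, so its fold is imprecise. Of 7 other tested genes of synthesis and recycling of the cofactor, Gchfr was the 1 that was called, and the other 6 ranged from -0.47 to 0.28.

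Of 6 tested genes for enzymes that use tetrahydrobiopterin or make dopamine, 4 rose and 0 fell by limma and by edgeR, and 3 rose by DESeq2, which did not call Th. Ddc, the aromatic amino acid decarboxylase of dopamine and serotonin synthesis, had 526 and 902 normalized counts in KO, 273 and 581 in C54Y, and 200.2 and 355 in WT (1.36 ± 0.20, adjusted p = 0.00348). Nos1, the neuronal nitric oxide synthase, had 138 and 87.8 in KO, 53.0 and 50.7 in C54Y, and 14.9 and 20.6 in WT (2.52 ± 0.36, adjusted p = 0.00303). Both calls held with each library left out. Th, tyrosine hydroxylase, had no more than 34.4 normalized counts in any library, with 13.0 and 34.4 in KO and 2.24 and 5.15 in WT (2.09 ± 0.49, adjusted p = 0.0223), and its call was lost without KO replicate 2 (adjusted p = 0.075) or WT replicate 2 (adjusted p = 0.102) and by DESeq2 (adjusted p = 0.0901). The fourth gene was the endothelial synthase Nos3 (0.93, adjusted p = 0.038), named after its values were seen, whose call was lost without KO replicate 1 (adjusted p = 0.0847), C54Y replicate 2 (adjusted p = 0.0576) or WT replicate 1 (adjusted p = 0.254). Neuron markers were called up in 2 of 9 genes in KO and down in 0, against 8.9% and 7.41% of all tested genes. Their median log2 fold change was 0.058, against 0.028 over all tested genes, and their values ranged from -1.29 to 0.84.

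Tor1a had 997 and 1497 normalized counts in KO, 866 and 1533 in C54Y, and 1002 and 1565 in WT. The replicates differed more than the genotypes: replicate 2 was 1.5 times replicate 1 in KO, 1.77 times in C54Y and 1.56 times in WT. The KO to WT log2 fold change was -0.035 ± 0.16 (adjusted p = 0.911) with a 95% interval of -0.39 to 0.32, and the C54Y to WT value was -0.12 ± 0.16 (adjusted p = 0.861) with an interval of -0.48 to 0.24. Of 14 other tested genes of torsins, their cofactors and the nuclear envelope, 2 rose and 1 fell in KO by limma, and edgeR called 2 and DESeq2 3. Emd, the X-linked gene of emerin, rose (0.61, adjusted p = 0.016 by limma). The 567 tested genes of chromosome X had a median of 0.59 in KO, with 189 called up and 19 down. The Emd call was lost with WT replicate 2 left out, where its value was 0.55. The calls of Sun1 (0.57, adjusted p = 0.0287) and Syne2 (-0.68, adjusted p = 0.0379), which link the nuclear envelope to the cytoskeleton, were lost without either WT or either C54Y library (adjusted p between 0.0511 and 0.272).

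Gnal had 264 and 160 normalized counts in KO, 199 and 207 in C54Y, and 134 and 111 in WT. Every mutant library lay above both WT libraries. The log2 fold change was 0.75 ± 0.27 for KO with an adjusted p of 0.095, and 0.73 ± 0.27 for C54Y with an adjusted p of 0.306, and neither passed the threshold. It passed in KO without KO replicate 2 (1.05, adjusted p = 0.00869). A left-out KO library leaves the other one alone, without a spread of its own. Gnal shares 7.63% of its exon bases with Mppe1 on the other strand, which stood at 0.87 in KO (adjusted p = 0.0555). Of 11 other tested genes of this signalling route, 0 rose and 1 fell in KO: Gnas, the related stimulatory alpha subunit of most other cells, at -0.76 ± 0.16 (adjusted p = 0.0137). Gnas had 5360 and 10388 normalized counts in KO, 8937 and 12649 in C54Y, and 11136 and 14404 in WT.

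Ciz1 had 582 and 1063 normalized counts in KO, 1061 and 1191 in C54Y, and 1026 and 1282 in WT. The low value was that of KO replicate 1, at 56.7% of WT, while KO replicate 2 stood at 82.9%. The log2 fold change of -0.54 ± 0.20 did not pass (adjusted p = 0.102), and passed without KO replicate 2 (-0.85, adjusted p = 0.000301). Among 10 other tested genes linked to CIZ1, 2 rose and 0 fell in KO by limma, the helicase subunit genes Mcm2 (0.45, adjusted p = 0.0329) and Mcm3 (0.39, adjusted p = 0.0473). Neither was called by edgeR (adjusted p = 0.0715 and 0.111) or DESeq2 (0.0606 and 0.111), and both calls were lost without either WT or either C54Y library (adjusted p between 0.0596 and 0.266). The 1 gene that DESeq2 called was Xist (1.22, adjusted p = 0.0374), named after its values were seen. These 10 genes ranged from -0.32 to 0.97, with a median of 0.40 against 0.028 over all tested genes. At an unadjusted p under 0.05 were 6 by limma (31.1% of all tested genes), 5 by edgeR (30.7%) and 5 by DESeq2 (26.6%). Ciz1 shares 8.46% of its exon bases with 1110008P14Rik on the other strand.

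Kctd17 had 866 and 1867 normalized counts in KO, 906 and 1519 in C54Y, and 828 and 1400.0 in WT. Mutant libraries were above WT within each replicate, and KO stood at 105% of WT in replicate 1 and 133% in replicate 2. The log2 fold change of 0.24 ± 0.17 was not called (adjusted p = 0.376, and 0.0373 without KO replicate 1). Of 10 other tested genes of cullin adaptors and ciliogenesis, the process in which KCTD17 acts through trichoplein, 0 were called by limma, edgeR or DESeq2, 0 had an unadjusted p under 0.05, 2 were called without KO replicate 1, and their values ranged from -0.22 to 0.29.

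**Figure D4:**
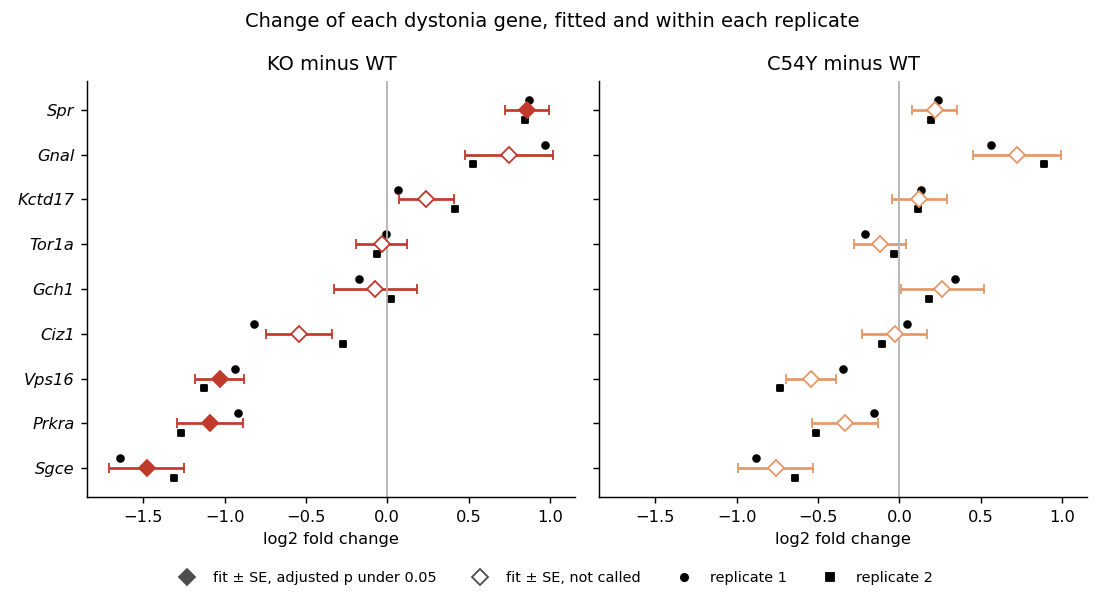
Log2 fold change (x axis) of each dystonia gene (y axis), KO minus WT on the left and C54Y minus WT on the right. Diamonds with bars are fitted values ± SE, filled where the adjusted p is under 0.05, and black circles and squares are the differences within replicates 1 and 2. Sgce, Prkra and Vps16 lie below 0 and Spr above 0 as filled points in KO, and no point is filled in C54Y.

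C54Y was set against WT to see the same genes under the missense change. Of all tested genes 1.36% were called (0.962% up and 0.399% down), and of the 9 dystonia genes 0, with 3 at an unadjusted p under 0.05 by limma (12.3% of all tested genes) and likewise 3 by edgeR (12.1%) and 3 by DESeq2 (10%), each with the block. These 3 were Vps16, Sgce and Gnal. Vps16 stood at -0.54 ± 0.15 (adjusted p = 0.158), at 78.5% of WT in replicate 1 and 60.1% in replicate 2. Sgce stood at -0.76 ± 0.23 (adjusted p = 0.184), at 54.1% and 63.9% of WT. Each of the 3 genes passed with KO replicate 1 or KO replicate 2 left out, at unchanged log2 fold changes. A fit of C54Y and WT alone called these 3 as well, but among 1743 genes of 15287, against 208 in the main fit. Such fits have 1 residual degree of freedom a gene, against 2 in the main fit. Why more genes pass in them was not tested. Prkra stood at -0.33 (adjusted p = 0.601), Spr at 0.22 (0.617), Gch1 at 0.26 (0.785), Kctd17 at 0.12 (0.865) and Ciz1 at -0.029 (0.977).

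Libraries of KO and WT did not overlap for 4 of the 9 genes (Vps16, Sgce and Prkra lower in KO, Gnal higher), against 27.2% of all tested genes, 13.6% in each direction. Libraries of C54Y and WT did not overlap for 5, against 18%; Gnal and Gch1 were higher in C54Y, against 9.3% of all genes, and Vps16, Sgce and Prkra lower, against 8.69%. The difference had the same sign in both replicates for 8 of the 9 genes between KO and WT (65.6% of all tested genes) and for 8 between C54Y and WT (66.1%). C54Y lay between KO and WT in both replicates for 4 of the 9 genes, Vps16, Sgce, Prkra and Spr, which are also those called in KO. The same order held for 79.4% of all genes called between KO and WT and for 31.4% of all tested genes. Both comparisons share the WT libraries.

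Between the mutants, 0.19% of tested genes were called (0.0458% higher in KO and 0.144% lower), and of the 9 dystonia genes 0 by limma, with 5 at an unadjusted p under 0.05 (15.4% of all tested genes), while DESeq2 called 1 and edgeR 0. The one gene was Spr, which was higher in KO than in C54Y by 0.64 ± 0.14 (adjusted p = 0.0922 by limma with the block, 0.0156 by DESeq2 with the block). KO was 155% of C54Y for Spr in replicate 1 and 157% in replicate 2. Limma called it too without KO replicate 1, KO replicate 2 or WT replicate 1, but not without either C54Y library or WT replicate 2. With one library left out, the Spr difference ranged from 0.62 to 0.65. A fit of the mutants alone also called Spr, but among 677 genes of 15287, against 29 in the main fit. Prkra stood at -0.76 ± 0.20 (adjusted p = 0.144), Sgce at -0.72 ± 0.23 (0.194), Ciz1 at -0.51 ± 0.20 (0.275) and Vps16 at -0.49 ± 0.15 (0.191). Libraries of the mutants did not overlap for 4 genes, against 17.5% of all: Vps16, Sgce, Prkra and Gch1 were lower in KO (8.84% of all genes), and 0 were higher (8.64%). The sign was the same in both replicates for 6 of the 9 genes, against 59% of all. A difference between the mutants is therefore not established for these genes, and its absence is not shown.

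Replicate number moved the dystonia genes as well. Between replicate 2 and replicate 1, 5 of the 9 genes were called, all 5 up, against 32% of tested genes called up and 32.8% down. With TMM factors, edgeR, or limma without robust trend, 3 were called up and 1 (Sgce) down. Spr differed most (1.46 ± 0.11, adjusted p = 5.58e-06), followed by Kctd17 (0.87 ± 0.14, adjusted p = 0.000494), Tor1a (0.68 ± 0.13, adjusted p = 0.00145), Ciz1 (0.45, adjusted p = 0.0363) and Vps16 (0.37, adjusted p = 0.0265). The calls of Vps16 and Ciz1 were lost under those 3 settings, that of Vps16 also without any one of the C54Y and WT libraries (adjusted p between 0.0632 and 0.236), and that of Ciz1 without either KO library (0.0642 and 0.0801) or WT replicate 2 (0.0502). Spr was 2.74 times higher in replicate 2 in KO, 2.71 times in C54Y and 2.79 times in WT, so its replicate difference was larger than its genotype difference. What the replicate number marks is not stated in the labels.

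Of the dystonia genes 4, Tor1a, Vps16, Prkra and Ciz1, lie on chromosome 2, whose 1202 tested genes had a median of -0.17 in KO, with 10.5% called down. Of these 4 genes 2 were called. Emd, Eif2s3x, Dmd and Xist, named above, lie on chromosome X, whose 567 tested genes had a median of 0.59 in KO. Neighbouring genes were compared as well, taking the nearest 2 tested genes on each side. Their counts stand beside 16.3% of all tested genes called in KO, 8.9% up and 7.41% down. Of 16 neighbours of the called genes, 3 were called in KO, all down: Peg10 next to Sgce, Ptpra next to Vps16 (-0.66, adjusted p = 0.0261) and Fkbp7 near Prkra (-1.27, adjusted p = 0.0271). Ptpra encodes a receptor tyrosine phosphatase and Fkbp7 a prolyl isomerase of the endoplasmic reticulum. The Ptpra call was lost without either WT or either C54Y library (adjusted p between 0.0647 and 0.2), and the Fkbp7 call without KO replicate 2 (0.0549) or WT replicate 2 (0.118). None of the 4 neighbours of Spr was called by limma. Of 20 neighbours of the other 5 dystonia genes, 1 rose and 1 fell, both named after their values were seen: Tst, the gene of a mitochondrial sulfurtransferase near Kctd17 (1.37, adjusted p = 0.00395), and Samd4 near Gch1 (-1.58, adjusted p = 0.0287, and 0.118 without WT replicate 1).

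A longer list of 34 other genes of inherited dystonias, also chosen with earlier results known, had 2 genes up and 2 down in KO by limma, against 16.3% of all tested genes called, and 30 that limma did not call, with values from -0.57 to 0.73. Its median was 0.062, against 0.028 over all tested genes. Up were Th and Ddc, described above. EdgeR called the same 4 genes. DESeq2 called 5: Ddc, Tubb4a and Gnao1 but not Th, and also Taf1 (0.74, adjusted p = 0.0316) and Timm8a1 (0.75, adjusted p = 0.0136). Taf1 and Timm8a1 were named after their values were seen, and lie on chromosome X, whose median in KO was 0.59. Down were Tubb4a, a neural beta tubulin (-1.43 ± 0.27, adjusted p = 0.00981), and Gnao1, the alpha subunit of the inhibitory G protein Go (-1.66 ± 0.32, adjusted p = 0.0101). Tubb4a had 110 and 309 normalized counts in KO, 349 and 462 in C54Y, and 372 and 678 in WT. Gnao1 had 75.6 and 85.3 in KO, 301 and 145 in C54Y, and 327 and 202 in WT. Their libraries did not overlap between KO and WT, and both calls held with each library left out. In C54Y 0 of the 34 genes were called by limma, edgeR or DESeq2, with 1 at an unadjusted p under 0.05 by each. Limma did call genes of the list, all up, with KO replicate 1 or KO replicate 2 left out.

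**Figure D5:**
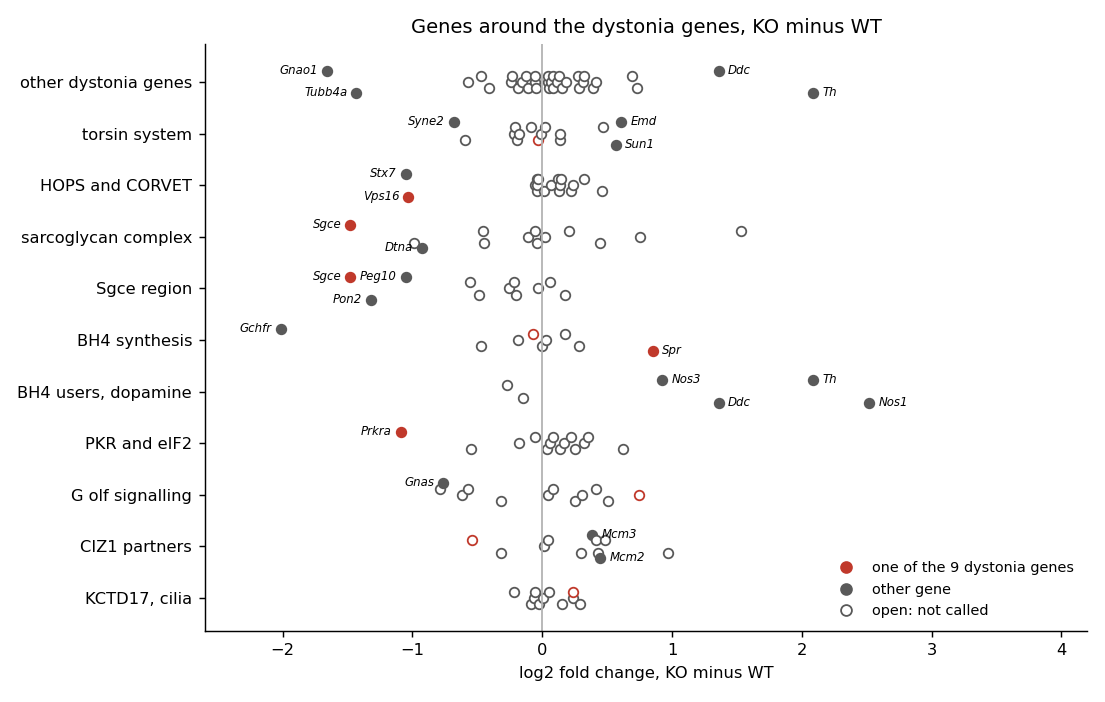
Log2 fold changes of KO minus WT (x axis) for the tested genes of each list (y axis), with the 9 dystonia genes in red, other genes in grey and genes not called as open points. Labelled points were called, and BH4 stands for tetrahydrobiopterin. In the PKR and tethering lists Prkra, Vps16 and Stx7 are the filled points, and the 4 called genes that use BH4 or make dopamine lie between 0.93 and 2.52.

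Genes whose pattern over the 6 libraries was most like that of each dystonia gene were sought among 11221 others with a mean of at least 3 CPM, after the mean of each replicate number was removed. Pearson's r over the 6 libraries is given as a description, since few free values remain and many genes reach high values. For Vps16 the closest were Rrbp1 and Frmd5 (r = 0.999 each), with 40 genes above an r of 0.99. For Sgce they were Ovol2 and Cd47 (0.999 each, 23 genes above 0.99), for Prkra Foxo1 (0.999) and March8 (0.998, 35 genes), and for Spr Nubp1 and Ndufv1 (86 genes). Ciz1 was matched by Stxbp2 and Pacsin3 (28 genes above 0.99). For the others, Tor1a was closest to Akr1b8 (0.995) and Stau1 (0.992), Gch1 to Rab3d (0.993) and Aldoc (0.99), Gnal to Kmt2c (0.995) and Dopey1 (0.994), and Kctd17 to Csk (0.998) and Suv420h2 (0.992), with 2 to 5 genes above 0.99.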

How the data were processed

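RNA was sequenced from TruSeq libraries of 6 samples. Per the submitters' processing notes, the tools were HTSeq, TopHat2 2.1.0, Trimmomatic, CASAVA and DESeq2, and the build was mm9; roles, strand setting, annotation and filters are not given in the sources used here. The deposited table holds a signal per gene and library, a normalized count, and its values are those of reads that the authors divided by 1 size factor per library. Multiplied back, 100% of values gave whole reads within a tolerance of 1e-06, and DESeq2 size factors recomputed from the recovered reads equalled the deposited ones. Columns left unmapped numbered 0.

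Tested genes had values of 10 or more in 2 or more libraries. The test was limma 3.58.1 (robust trend, R 4.3.3) after adding 2 to each normalized count and taking log2, with genotype and replicate number as terms and 2 residual degrees of freedom (3 without the block). A fold change on this scale understates that of low genes. The replicate number was made a block because the rule for the genes sets mutants against WT within each number. Log2 differences of replicate 2 from replicate 1 correlated between genotypes at 0.895 (KO and C54Y), 0.869 (KO and WT) and 0.907 (C54Y and WT), so the numbers pair the samples. The labels do not say what they mark. P-values were adjusted by Benjamini-Hochberg. The fit was tested on simulated data. The plan named this fit for normalized values, and alternatives were other pseudocounts, filters and scalings, no block, edgeR 4.0.16 and DESeq2 1.42.0 on recovered reads, and each library left out.

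The 9 genes, the lists and the tests were chosen with earlier results of these data known. Named were the 9 genes, Thap1, called genes of the longer dystonia list, up to 3 called genes of each pathway list with the smallest p, tested neighbours of called genes, and the 2 genes most like each. Markers named in passing and genes sharing exon bases were added after their values were seen. Symbols were matched to RefSeq GRCm38.p6 for chromosomes (99.6% of tested genes) and to GENCODE M21 for exon lengths (99.2%), builds other than mm9. Promoter stretches come from RefSeq. List genes with no matching symbol in the table were not analysed here.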

Additional observations from a re-analysis of the deposited data

How the results depend on the processing

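With the replicate number as a block, 4 of the 9 dystonia genes were called between KO and WT (1 up and 3 down) under each other setting with the block that was run on all 6 libraries or on the 2 groups alone: pseudocounts of 0.5 and 8, no filter, a filter at 50, TMM factors, edgeR, DESeq2 and limma without robust trend. With no replicate block the count was 0 by limma (3 at an unadjusted p under 0.05) and 0 by edgeR (also 3), and over all genes it was 0 in each comparison by both tools, against 2494 (KO and WT), 208 (C54Y and WT) and 29 (KO and C54Y) with the block; edgeR on recovered reads with the block called 2427, 198 and 29. Without the block, the adjusted p of the called genes was 0.662 (Vps16), 0.599 (Sgce), 1.0 (Spr) and 0.63 (Prkra) by limma. With one library left out, the dystonia genes called numbered 3 to 6 between KO and WT, 0 to 3 between C54Y and WT, and 0 to 5 between the mutants, and all called genes 1749 to 4861, 69 to 1818, and 7 to 2831. Limma without robust trend called 1433, 4 and 0 genes in these comparisons. DESeq2 with the block called 479 genes between C54Y and WT and 453 between the mutants, where it called 1 dystonia gene. A fit of only the 2 groups compared called 1743 genes and 3 dystonia genes between C54Y and WT, and 677 and 1 between the mutants; with 1 residual degree of freedom a gene, as also with one library left out. The cause of these shifts was not tested.

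Signs turned for values near 0. Gnal between KO and C54Y was 0.023, against -0.041 with TMM factors and -0.026 by edgeR with the block. With one library left out, Gnal between the mutants ranged from -0.28 to 0.33, Kctd17 between the mutants from -0.062 to 0.29, Tor1a between the mutants from -0.020 to 0.19, Tor1a between KO and WT from -0.11 to 0.038, Gch1 between KO and WT from -0.21 to 0.066, Ciz1 between C54Y and WT from -0.24 to 0.18, and Gch1 between replicate 2 and replicate 1 from -0.11 to 0.065. TMM factors moved the median of all genes by -0.087 in KO against WT and by -0.104 in replicate 2 against replicate 1. The balance of calls between KO and WT turned with it. The main fit called 1361 genes up and 1133 down, and DESeq2 with the block 1360 and 1162. With TMM factors 1089 were up and 1343 down, and by edgeR with the block 1085 and 1342. The shares called up and down given above are those of the main fit. Th and Gchfr had libraries under 10 normalized counts, which limits their fold changes.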
